A study of Mus musculus with 30 samples.

Results

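Alpha-cells that make Pdx1 from a transgene, in mice whose beta-cells had not been ablated, were compared with mature beta-cells: 5 libraries of the first kind (Pdx1 alpha-cells) against 7 of the second (beta-cells), 12 of the 30 bulk RNA-seq libraries in the study. The members were chosen by their labels alone, and the question was which genes reached the beta-cell level in alpha-cells that make Pdx1. How near Pdx1 itself came to that level is described below. Both groups were sorted by fluorescence from mouse islets at 3 months of age. Pdx1 alpha-cells carried Glucagon-rtTA, TetO-Cre, R26YFP and CAG-Pdx1, so Cre was made under control of the glucagon gene promoter and switched on YFP and the Pdx1 transgene. Beta-cells carried Insulin-mCherry. Neither group carried RIP-DTR or received diphtheria toxin (DT), and the reporter differed along with the cell type and the transgene. Mature alpha-cells from Glucagon-Venus mice of the same age (8 libraries) are given as levels only, with no test. The labels do not say that libraries came from separate mice, so p-values measure only the spread between these libraries.

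Values are log2 values that the authors quantile-normalized, so the list of values was nearly the same in every library, with a median of 8.55 and a top value of 22.57. The most abundant genes took fixed steps (22.57, 20.54, 19.87, 19.27), so differences between hormone genes are differences of rank and not of amount. Read depth is not in the table. The number of distinct values below the first quartile, a count that grows with depth, was 40 to 88 in Pdx1 alpha-cells and 51 to 100 in beta-cells. In the text, "called" means an adjusted p under 0.05 for a difference, "beyond 1" means the same for a difference larger than 1 log2 unit, and "within 1" means that the difference was shown to be smaller than 1 log2 unit. Differences are Pdx1 alpha-cells minus beta-cells, with ± for the standard error.

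Several libraries stood apart from their labels. In the libraries labelled beta 1 and beta 5 the glucagon gene Gcg held the top value of 22.57. The library labelled Pdx1 alpha 5 had Pdx1 at 8.61 against 10.78 to 11.83 in its group, with the alpha-cell gene Ttr at 20.54 against 16.47 to 17.68. Outside these groups, the library labelled alpha 8 had Pdx1 at 11.23 against 3.66 to 5.61 in the other alpha-cell libraries, and 1 library of Pdx1 alpha-cells after toxin had it at 5.51. Those libraries enter the spread that the fit of all 30 libraries uses, and a fit of the 12 libraries alone is given beside genes whose call it changes. The ribosomal RNA gene Rn18s-rs5 also separated the groups, at 16.90 to 18.27 in Pdx1 alpha-cells and 19.27 to 19.87 in beta-cells.

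Pdx1 is a homeodomain transcription factor that is needed for the pancreas to form and is kept in adult beta-cells, where it binds the promoters of the insulin genes, Iapp and other genes of glucose sensing. Beta-cells read glucose through the transporter encoded by Slc2a2 and the metabolism of the sugar that follows, and release insulin with islet amyloid polypeptide from dense-core granules. Alpha-cells release glucagon and hold transcription factors such as Irx1 and Irx2. Mafa and Nkx6-1 are the other transcription factors most often used to mark the mature beta-cell.

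To place the results on sequence, promoters of 300 bases (250 before to 50 after the annotated start) were taken from RefSeq on GRCm38.p6 for the genes described most. Of 21 such genes, 14 were found in the table of promoters. Homeodomain factors such as Pdx1 bind a core of TAAT, which is ATTA on the other strand. The 4 promoters shown are from genes that ended at different distances from the beta-cell level (Iapp, Ins1, Ucn3 and Slc2a2, picked after their values were seen). TAAT on either strand is in capitals, and each run reads 5′ to 3′ on the strand of the gene: Iapp at chr6:142298175-142298474 (plus strand), Ins1 at chr19:52264047-52264346 (plus), Ucn3 at chr13:3945300-3945599 (minus) and Slc2a2 at chr3:28697653-28697952 (plus).
Iapp: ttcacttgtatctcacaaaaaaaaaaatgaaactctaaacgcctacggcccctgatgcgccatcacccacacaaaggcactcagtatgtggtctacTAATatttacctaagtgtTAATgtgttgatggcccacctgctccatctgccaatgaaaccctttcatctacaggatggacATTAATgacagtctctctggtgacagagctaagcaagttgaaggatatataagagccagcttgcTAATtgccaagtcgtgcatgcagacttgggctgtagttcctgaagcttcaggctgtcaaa
Ins1: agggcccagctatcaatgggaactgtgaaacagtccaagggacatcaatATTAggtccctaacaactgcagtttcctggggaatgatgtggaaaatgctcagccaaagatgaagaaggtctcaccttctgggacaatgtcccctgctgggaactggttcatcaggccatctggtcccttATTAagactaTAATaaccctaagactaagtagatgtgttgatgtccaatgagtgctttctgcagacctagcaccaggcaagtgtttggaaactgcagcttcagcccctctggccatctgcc
Ucn3: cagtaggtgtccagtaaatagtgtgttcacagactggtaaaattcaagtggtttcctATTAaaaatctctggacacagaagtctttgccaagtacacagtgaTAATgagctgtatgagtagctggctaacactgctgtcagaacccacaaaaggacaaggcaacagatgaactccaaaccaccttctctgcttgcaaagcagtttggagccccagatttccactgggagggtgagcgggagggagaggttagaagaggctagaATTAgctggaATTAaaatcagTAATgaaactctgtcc
Slc2a2: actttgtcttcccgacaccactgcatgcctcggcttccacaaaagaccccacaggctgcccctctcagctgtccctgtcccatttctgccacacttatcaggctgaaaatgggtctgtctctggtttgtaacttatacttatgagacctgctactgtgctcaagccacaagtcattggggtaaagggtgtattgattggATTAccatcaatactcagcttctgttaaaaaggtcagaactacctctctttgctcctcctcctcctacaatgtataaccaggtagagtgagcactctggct
Iapp and Ucn3 each held 5 matches, Ins1 held 3 and Slc2a2 held 1. At least 1 match occurred in 58% of all 32851 promoters of this length, at least 3 in 20% and at least 5 in 6.86%. The windows of Nkx6-1, Glp1r, Pdx1 and Pyy held none, and those of Pcsk1 and Sst held 1. G6pc2 had 2 annotated starts, with 1 and 3 matches. As the values below show, Iapp was near the beta-cell level and Ucn3 far below it with the same number of matches. A match is a description of the letters and not a bound site.

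Pdx1 (GRCm38 chr5:147269959-147275848) averaged 10.89 (SD 1.34, n = 5) in Pdx1 alpha-cells and 11.20 (SD 0.48, n = 7) in beta-cells. Its values were 11.60, 10.78, 11.83, 11.64 and 8.61 in Pdx1 alpha 1 to 5 and 10.45, 11.42, 11.26, 11.66, 10.78, 11.07 and 11.77 in beta 1 to 7. So 3 of the 5 Pdx1 alpha-cell libraries lay inside the beta-cell range, Pdx1 alpha 3 lay just above it and the library labelled Pdx1 alpha 5 lay below it. The difference was -0.31 ± 1.10 (adjusted p = 0.857), and within 1 was not shown (adjusted p = 0.418). Without Pdx1 alpha 5, beta 1 and beta 5, in a fit of the remaining libraries of these groups alone, the difference was 0.027 ± 0.21 and within 1 was shown (adjusted p = 0.00132). That setting was chosen after seeing the data and left out the library singled out by its low Pdx1. It therefore cannot serve as a test of equal Pdx1. In the 7 alpha-cell libraries other than alpha 8, Pdx1 averaged 4.72 (SD 0.87). The values cannot tell transcripts of the transgene from those of the endogenous gene.

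Iapp (chr6:142298423-142303961), which encodes islet amyloid polypeptide, was the gene of the beta-cell hormone group whose libraries overlapped between the groups. Its values were 18.63, 19.27, 19.27, 18.27 and 17.92 in Pdx1 alpha-cells and 18.27, 19.27, 19.27, 19.27, 17.31, 19.27 and 18.63 in beta-cells. It was among the most abundant genes of all 12 libraries, against 11.997 to 14.69 in the 7 alpha-cell libraries other than alpha 8. The difference was -0.08 ± 0.92 (adjusted p = 0.954), with within 1 not shown over 30 libraries (adjusted p = 0.288) and shown in the 12 libraries alone (-0.08 ± 0.36, adjusted p = 0.027). Because Iapp sat on the fixed top steps in both groups, equal values mean equal ranks.

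The insulin genes were below the beta-cell level in all 5 Pdx1 alpha-cell libraries. Ins2 was 19.27, 17.68, 18.63, 17.92 and 17.09 in Pdx1 alpha-cells and 19.87 or 20.54 in each beta-cell library. The groups did not overlap, with a difference of -2.23 ± 1.00 that missed the threshold over 30 libraries (adjusted p = 0.0885) and passed it in the 12 libraries alone (± 0.30, adjusted p = 2.75e-05). Ins1 was 17.68, 17.47, 17.47, 19.27 and 15.11 against 20.54 in beta 1 and beta 5 and the top value of 22.57 in the other 5 beta-cell libraries. Ins1 was lower by 4.58 ± 1.12 on this scale (difference of -4.58, adjusted p = 0.00271), and 5 of its beta-cell values were at the ceiling of the scale. With Rn18s-rs5 as a covariate the Ins1 difference was -3.49 and was not called (adjusted p = 0.158). Without beta 1 and beta 5, whose Ins1 was lowest in the group, it was -5.16. Ins1 and Ins2 are close copies, and how the authors assigned shared reads is not given in the sources used here.

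**Figure D1:**
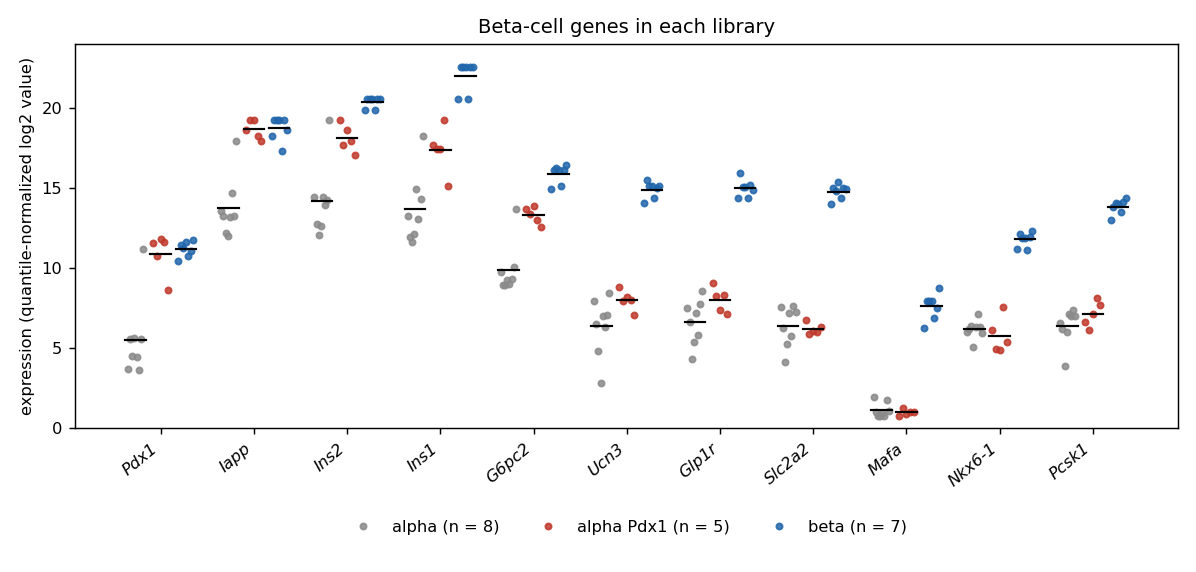
Quantile-normalized log2 values (vertical axis) of 11 beta-cell genes (horizontal axis) in each alpha-cell (grey), Pdx1 alpha-cell (red) and beta-cell (blue) library, with black bars at group means. Pdx1 and Iapp overlap between Pdx1 alpha-cells and beta-cells, whereas Mafa is at 0.76 to 1.28 in Pdx1 alpha-cells and 6.25 to 8.78 in beta-cells.

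Across all genes, 5464 of 16633 tested were called between Pdx1 alpha-cells and beta-cells (32.9%). Of these, 2774 (16.7%) were higher and 2690 (16.2%) lower in Pdx1 alpha-cells. Beyond 1 there were 917 (5.51%), namely 487 higher (2.93%) and 430 lower (2.59%). Within 1 was shown for 5621 (33.8%), of which 424 were also called as small differences, and 5972 had neither call. The libraries of the groups did not overlap for 3949 genes (23.7%), with Pdx1 alpha-cells above for 2094 (12.6%) and below for 1855 (11.2%). The median difference over all genes was 0.024. Without Pdx1 alpha 5, beta 1 and beta 5, 2116 of 16520 genes were higher and 2099 lower. A fit with Rn18s-rs5 as a covariate called 1907 of 16633 genes, 997 higher and 910 lower, and showed within 1 for 3703. List counts from these fits are to be read beside these totals and not beside the shares above. Since Rn18s-rs5 did not overlap between the groups, its part and that of the groups cannot be told apart.

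Among 11 genes reported as direct Pdx1 targets in beta-cells, Pdx1 included, 6 were lower in Pdx1 alpha-cells (background 16.2%), none higher, 1 within 1 and 4 had neither call. The median difference was -2.59, against 0.024 over all genes. G6pc2, the islet glucose-6-phosphatase catalytic subunit gene, stood between the other groups. It was 13.70, 13.37, 13.88, 12.99 and 12.58 in Pdx1 alpha-cells, 14.94 to 16.47 in beta-cells and 8.92 to 10.10 in 7 alpha-cell libraries. Against beta-cells it was at -2.58 ± 0.76 (adjusted p = 0.0106), with adjusted p = 0.294 with the covariate.

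Slc2a2, Glp1r and Nkx6-1 were far below the beta-cell level. Slc2a2 and Nkx6-1 had levels near those of alpha-cells, and Glp1r was somewhat above them. Slc2a2 (chr3:28697903-28731359), the glucose transporter of beta-cells, was 6.75, 5.91, 6.05, 6.03 and 6.35 in Pdx1 alpha-cells and 13.99, 15.00, 14.80, 15.37, 14.36, 15.04 and 14.96 in beta-cells. It had the lowest difference among named genes above the median level (-8.57 ± 0.54, adjusted p = 4.35e-13), and its alpha-cell mean was 6.39 (n = 8). Glp1r, the receptor for the incretin GLP-1, was 9.10, 8.26, 7.39, 8.32 and 7.16 against 14.36 to 15.96 (median 15.05) in beta-cells, a difference of -6.95 ± 0.62. Its mean was 6.38 (4.30 to 7.78) in the 7 alpha-cell libraries other than alpha 8. Nkx6-1 was 6.12, 4.93, 4.92, 7.57 and 5.36 against 11.13 to 12.34 (median 11.91), a difference of -6.02 ± 0.40 (adjusted p = 4.35e-13). None of these 3 genes overlapped between the groups, and each was beyond 1. Sst, the somatostatin gene, was at 0.47 ± 0.90 (adjusted p = 0.725).

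Mafa (chr15:75745490-75748228) was not detected above the lowest level in 4 of 5 Pdx1 alpha-cell libraries. Its values were 0.76, 1.28, 0.91, 1.03 and 0.99, of which all but 1.28 were the lowest value of their library, whereas beta-cells had 6.25, 7.95, 7.95, 7.95, 6.89, 7.50 and 8.78. The 12 libraries fell into separate ranges and the gene was called lower, beyond 1 (-6.61 ± 0.53, adjusted p = 2.29e-11). That difference is set by the lowest values of the table and is not a fold. Mnx1, a homeodomain factor of beta-cells, averaged 1.70 against 5.72 (-4.02 ± 0.64), both below the table median, and was at the lowest value in 1 of 5 Pdx1 alpha-cell libraries.

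Of 18 beta-cell transcription factor genes, 7 were lower, 1 higher, 6 within 1 and 4 had neither call, with a median difference of -0.47. Over all genes 16.2% were lower, 16.7% higher and 33.8% within 1, so the within 1 share was near that over all genes. It was under that of genes with both group means above the table median, of which 4728 of 8027 were within 1. The list also holds genes below that median, such as Mafa. Pax6, a factor of all islet endocrine cells, averaged 13.42 against 13.21 (0.20 ± 0.20, adjusted p for within 1 = 0.00139). Neurod1, a helix-loop-helix factor of endocrine differentiation, averaged 12.30 against 12.34 (-0.05 ± 0.26, adjusted p for within 1 = 0.00352, and 0.0876 with the covariate), and Foxo1, which insulin signalling restrains, 12.14 against 12.31. Foxa2 (0.44 ± 0.20), Esrrg (-0.08 ± 0.31) and Glis3 (-0.31 ± 0.25) were within 1 too. With Rn18s-rs5 as a covariate 2 of the 18 genes were within 1, beside 3703 of 16633 over all genes. Smaller differences were called for Nkx2-2 (-0.78 ± 0.24), Rfx6 (-0.63 ± 0.20) and Bhlha15 (-1.23 ± 0.42). The last lost its call without Pdx1 alpha 2 (adjusted p = 0.0678) or Pdx1 alpha 5 (adjusted p = 0.0788). Isl1, a LIM-homeodomain factor of islet cells, was the 1 gene that was higher, with 12.57 to 13.15 in Pdx1 alpha-cells against 11.51 to 12.21 in beta-cells (1.15 ± 0.27, adjusted p = 0.00157).

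Of 7 beta-cell hormone and peptide genes tested, 5 were called lower (16.2% over all genes) and 2 had neither call (Iapp and Ins2). Ucn3, the peptide that marks mature beta-cells, was 8.82, 7.92, 8.18, 8.04 and 7.09 against 14.05 to 15.49 (median 15.11), a difference of -6.89 ± 0.86 (adjusted p = 5.60e-07). Npy averaged 2.61 against 9.01, and Nnat, an imprinted gene that aids insulin processing, 5.18 against 11.40. Libraries of the groups did not overlap for 6 of the 7 genes, all with Pdx1 alpha-cells below (11.2% over all genes). The levels of Npy and Nnat lay near those of alpha-cells, where Npy averaged 3.47 and Nnat 5.67 (n = 8). Ucn3 was somewhat above alpha-cells, with a mean of 6.08 (2.81 to 7.95) in the 7 libraries other than alpha 8.

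Prohormone handling divided by enzyme. Pcsk1, the convertase that beta-cells use to process proinsulin, was 6.63, 6.17, 7.14, 8.16 and 7.72 in Pdx1 alpha-cells and 13.02, 13.83, 14.08, 14.02, 13.54, 14.11 and 14.35 in beta-cells. The difference of -6.69 ± 0.53 (adjusted p = 4.38e-11) left Pdx1 alpha-cells near alpha-cells (6.41). Pcsk2, the convertase that makes glucagon, averaged 17.37 against 16.58 (0.79 ± 0.20, adjusted p = 0.00305). In the list of 31 processing and granule genes, 10 were lower, 7 higher and 15 within 1 (16.2%, 16.7% and 33.8% over all genes), 2 of the last also called, with a median of -0.15. Higher ones were Cpe, the carboxypeptidase that trims prohormones (2.18 ± 0.51, and 0.98 with adjusted p = 0.36 with the covariate), Scg5, the chaperone of PCSK2 (1.47 ± 0.18), Pam, which amidates peptides (1.26 ± 0.20), and Resp18 (1.60 ± 0.37, adjusted p = 0.435 with the covariate). Lower ones were Sytl4, which encodes the granule docking protein granuphilin, at 3.98 to 6.93 against 12.40 to 13.97 (-8.46 ± 0.57), the granin gene Chga (-1.73 ± 0.29) and the vesicle gene Sv2a (-2.24 ± 0.41, adjusted p = 0.238 with the covariate). Those within 1 included the calcium sensor genes Syt7 (-0.05 ± 0.15) and Syt4 (-0.04 ± 0.18) and the granule phosphatase gene Ptprn2 (0.04 ± 0.17, adjusted p for within 1 = 6.04e-05).

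Genes of glucose uptake and metabolism were mostly below the beta-cell level: 13 of 22 were lower, 4 higher and 6 within 1 (16.2%, 16.7% and 33.8% over all genes), with a median of -0.65. Without Pdx1 alpha 5, beta 1 and beta 5, 9 were lower and 3 higher. With the covariate 4 were lower (910 of 16633 over all genes). Hadh, a mitochondrial dehydrogenase of fatty acid oxidation, was 8.74, 7.70, 8.38, 9.16 and 8.24 against 12.83 to 14.27 in beta-cells (-5.21 ± 0.37, adjusted p = 2.42e-12). Pkm, a pyruvate kinase, was at -1.66 ± 0.21. Hk1 and Slc2a3, the hexokinase and glucose transporter that beta-cells hold low, were higher at 3.35 ± 0.35 and 3.07 ± 0.45. Tpi1 and Pfkp of glycolysis were within 1 (-0.11 ± 0.19 and -0.31 ± 0.20), Pfkp not with the covariate (adjusted p = 0.234).

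Of 27 receptor genes, 10 were lower, 4 higher and 4 within 1 (16.2%, 16.7% and 33.8% over all genes), and the median was -1.40. Next to Glp1r, the lower ones included Gcgr, the glucagon receptor (2.79 against 9.69), Prlr, the prolactin receptor (7.30 against 14.71, -7.41 ± 0.47), and the nucleotide receptor gene P2ry6 (2.40 against 10.12). The insulin receptor gene Insr was within 1 (-0.24 ± 0.15, adjusted p for within 1 = 0.000187), as was the fatty acid receptor gene Ffar2 (0.02 ± 0.28; 0.35 with adjusted p for within 1 of 0.125 with the covariate). The calcium-sensing receptor gene Casr was within 1 as well (-0.16 ± 0.33, adjusted p for within 1 = 0.0285). Its call was lost without Pdx1 alpha 1, 3 or 4 (adjusted p = 0.0814, 0.0586 or 0.0531). The call was also lost with the covariate (0.695, adjusted p for within 1 = 0.357) and without beta 1 and beta 5 (adjusted p for within 1 = 0.0708). Ffar4, a receptor for long-chain fatty acids, and the somatostatin receptor gene Sstr2 were higher (2.67 ± 0.28 and 3.44 ± 0.53). Among 28 ion channel genes 10 were higher, 5 lower and 7 within 1 (16.7%, 16.2% and 33.8% over all genes), so the lower and within 1 shares were near or under the background. The calcium channel gene Cacna1c (-0.10 ± 0.16) and the potassium channel gene Kcnj11 (0.21 ± 0.17) were within 1. Trpm5, a cation channel of beta-cells, was at 6.81 to 7.96 against 12.40 to 13.85 (-5.99 ± 0.70).

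Alpha-cell transcription factor genes were mostly above the beta-cell level in Pdx1 alpha-cells. Of 12 alpha-cell transcription factor genes, 8 were higher than in beta-cells (background 16.7%), 1 was lower and 2 were within 1, 1 of them the lower one, with a median of 3.36. Irx1, an Iroquois homeodomain factor, was 9.35 to 10.44 against 4.26 to 9.08 (3.88 ± 0.65), and Irx2 was 10.81 to 12.51 against 5.09 to 9.76 (4.76 ± 0.60). For both genes the highest beta-cell values came from beta 1 and beta 5. Etv1, an ETS factor, averaged 14.88 against 10.38 (4.49 ± 0.41). Rfx3, a factor of cilia and islet development, was within 1 (0.35 ± 0.20).

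Of 16 alpha-cell effector genes, 10 were higher (16.7% over all genes), 1 lower, 2 within 1 and 3 had neither call, with a median of 2.96. Without Pdx1 alpha 5, beta 1 and beta 5, 12 were higher. Gcg, the glucagon gene, was 19.87, 18.63, 22.57, 20.54 and 22.57 in Pdx1 alpha-cells and 22.57, 16.28, 15.46, 15.16, 22.57, 17.92 and 16.37 in beta-cells. The groups overlapped through beta 1 and beta 5, and the difference of 2.79 ± 1.13 was not called (adjusted p = 0.059). Without those 2 libraries it was 4.60 (adjusted p = 8.07e-05), and it was called without beta 1 alone (3.54, adjusted p = 0.01), beta 5 alone (3.54, adjusted p = 0.0104) or Pdx1 alpha 2 (3.34, adjusted p = 0.0391). Since beta 1 and beta 5 were singled out by their high Gcg, fits without them cannot serve as a test of Gcg. Ttr, which encodes transthyretin, was 17.09, 16.47, 17.68, 16.66 and 20.54 against 14.13 to 16.90 (median 14.76). It was higher by 2.37 ± 0.78 (adjusted p = 0.0212), but not without Pdx1 alpha 5 (1.66, adjusted p = 0.103) or with the covariate (1.30, adjusted p = 0.498). Both genes had lower means than in alpha-cells, where 7 libraries had Gcg at the top value and Ttr at 19.87 to 20.54. Some other effectors stood near the alpha-cell level: Higd1a averaged 12.19 against 6.87 in beta-cells and 12.34 in alpha-cells, Vwde 13.31 against 7.85 and 13.24, and the glycosyltransferase gene Galnt13 12.66 against 7.09 and 12.28. The potassium channel gene Kcnj3 was higher by 4.06 ± 0.57. Dpp4, the peptidase that inactivates incretins, was lower (-1.58 ± 0.25). The 2 genes within 1 were the amino-acid transporter genes Slc38a4 (-0.24 ± 0.16) and Slc7a2 (-0.09 ± 0.35, adjusted p for within 1 = 0.0249). The latter was not within 1 without Pdx1 alpha 5 (adjusted p = 0.091) or with the covariate (adjusted p = 0.0865).

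Some genes were higher in Pdx1 alpha-cells than in either beta-cells or alpha-cells by their levels. Pyy (chr11:102106676-102107832), a gut and islet peptide of the pancreatic polypeptide fold, was 20.54, 22.57, 20.54, 22.57 and 18.27 in Pdx1 alpha-cells and 16.19, 12.65, 11.91, 12.61, 16.47, 12.62 and 13.01 in beta-cells. Pyy was thus the top gene in Pdx1 alpha 2 and 4, was higher by 7.26 ± 1.07 (adjusted p = 8.90e-06), and lay at 16.14 to 18.63 in the 7 alpha-cell libraries other than alpha 8. The neighbouring gene Ppy, pancreatic polypeptide, was 17.92, 16.75, 17.92, 17.31 and 15.54 against 16.47, 12.73, 11.51, 12.21, 15.62, 12.21 and 11.27. Its groups overlapped through beta 1 and beta 5, with a difference of 3.94 ± 0.75 (adjusted p = 0.000225). In the 7 alpha-cell libraries other than alpha 8 Ppy averaged 16.04 (14.97 to 17.92), so the Pdx1 alpha-cell values lay inside the alpha-cell range.

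Mc4r, the melanocortin receptor known from appetite control in the brain, had the highest difference of all named genes. It was 10.88, 11.58, 11.24, 11.43 and 10.61 in Pdx1 alpha-cells and 2.25, 3.31, 2.54, 3.26, 5.56, 3.50 and 2.16 in beta-cells (7.92 ± 0.90, adjusted p = 9.45e-08). The 7 alpha-cell libraries other than alpha 8 had 4.02 to 7.69, so Pdx1 alpha-cells lay above both. Lrtm1, a leucine-rich membrane protein gene, was 9.51 to 10.80 against 0.99 to 6.59, with 3 of 7 beta-cell libraries at their lowest value (7.16 ± 1.09), and averaged 4.25 in those alpha-cells. Tac1, the substance P gene, was 10.60, 9.76, 7.48, 9.16 and 8.35 against 4.10 to 4.94 (4.61 ± 0.92, adjusted p = 0.000271), with an alpha-cell mean of 3.49 without alpha 8. Ryr3, a calcium release channel, was 10.83 to 12.04 against 7.68 to 8.09 (3.61 ± 0.70), and 6.50 to 8.26 in those alpha-cells. Tph2, a serotonin-synthesis enzyme, was higher by 3.64 ± 1.01 and Gast, the gastrin gene, by 2.78 ± 0.68, both at low levels (means of 6.72 and 6.67) and neither called with the covariate (adjusted p = 0.223 and 0.143). Tph2 was not called either without Pdx1 alpha 5, beta 1 and beta 5 (2.91, adjusted p = 0.0638). In the list of 10 other islet peptide genes 6 were higher (16.7% over all genes) and none lower, with a median of 2.96.

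**Figure D2:**
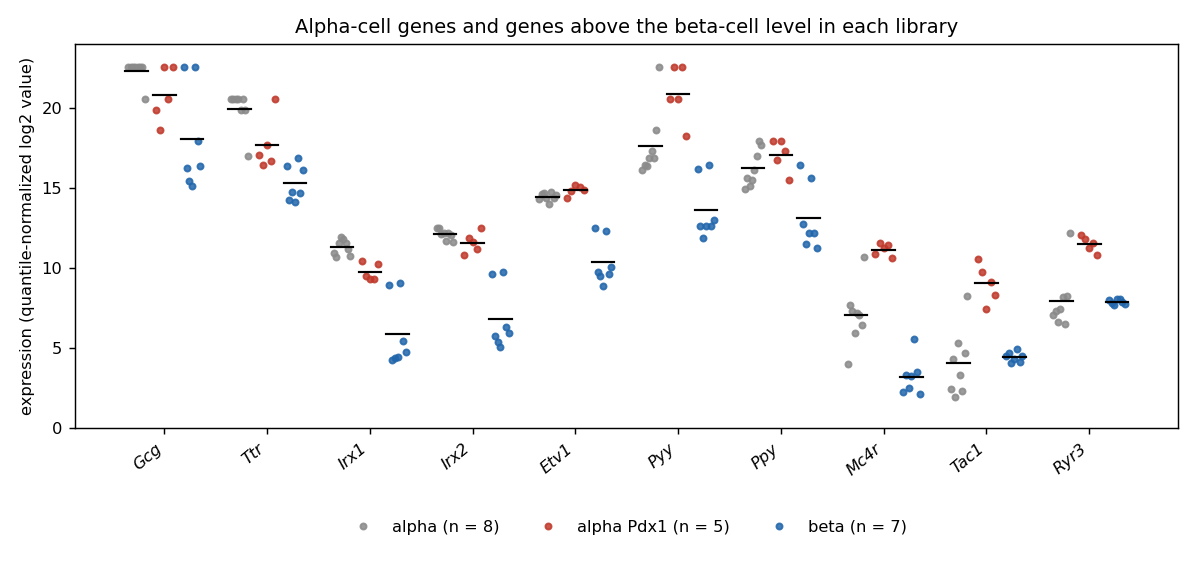
Quantile-normalized log2 values (vertical axis) of 10 genes (horizontal axis) in each alpha-cell (grey), Pdx1 alpha-cell (red) and beta-cell (blue) library, with black bars at group means. Irx2 is at 10.81 to 12.51 in Pdx1 alpha-cells and 5.09 to 9.76 in beta-cells, and Mc4r is above both other groups except for the library labelled alpha 8.

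The 8 highest and 8 lowest differences were sought among called genes without overlap whose higher group averaged more than the table median. Among those not yet described were Basp1, Gm10846 and Gm9930 at the top and Kcng3, Itpkb, Gm17767 and Ighg2c at the bottom. Basp1, a membrane protein gene of growth cones, averaged 10.65 against 4.98 (9.67 in alpha-cells). The predicted genes Gm10846 (8.60 against 1.72) and Gm9930 (8.95 against 2.91) were higher. Kcng3, a potassium channel subunit gene, was at 0.91 to 4.17 against 9.39 to 10.71, with 3 of 5 Pdx1 alpha-cell libraries at their lowest value. Itpkb, an inositol trisphosphate kinase gene, was 2.44 to 6.20 against 10.92 to 12.19 (-8.08 ± 0.57), and the non-coding RNA gene Gm17767 averaged 2.29 against 10.22. Ighg2c, an immunoglobulin constant region gene of plasma cells, was at its lowest value in all 5 Pdx1 alpha-cell libraries and at 4.76 to 15.69 in beta-cells, so no fold is given.

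Of 28 oxidative phosphorylation genes, 18 were within 1 (background 33.8%), 2 of these also called, 6 were lower and 3 higher, with a median of -0.20. The respiratory chain gene Ndufa4 (11.60 against 11.58), the succinate dehydrogenase gene Sdhb (10.64 against 10.66) and the ATP synthase gene Atp5a1 (14.04 against 14.32) were examples. Among all tested genes with both group means above the table median, 4728 of 8027 were within 1. The within 1 share of this list was near that of such genes. With the covariate 5 of the 28 were within 1 (3703 of 16633 over all genes), and Atp5a1 and Sdhb were not (adjusted p = 0.0766 and 0.105). Of 30 insulin signalling genes 17 were within 1, 9 lower and 3 higher (33.8%, 16.2% and 16.7% over all genes), with the tuberous sclerosis gene Tsc2 at 0.01 ± 0.16 and Rptor of the mTOR complex at 0.07 ± 0.15. Here too the within 1 share was near that of genes above the table median. Lower ones included Igf1r, a growth factor receptor (-1.66 ± 0.25), and the kinase gene Akt1 (-1.21 ± 0.21). The adaptor genes Grb14 (1.65 ± 0.23) and Grb10 (1.53 ± 0.32, adjusted p = 0.063 with the covariate) were higher.

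**Figure D3:**
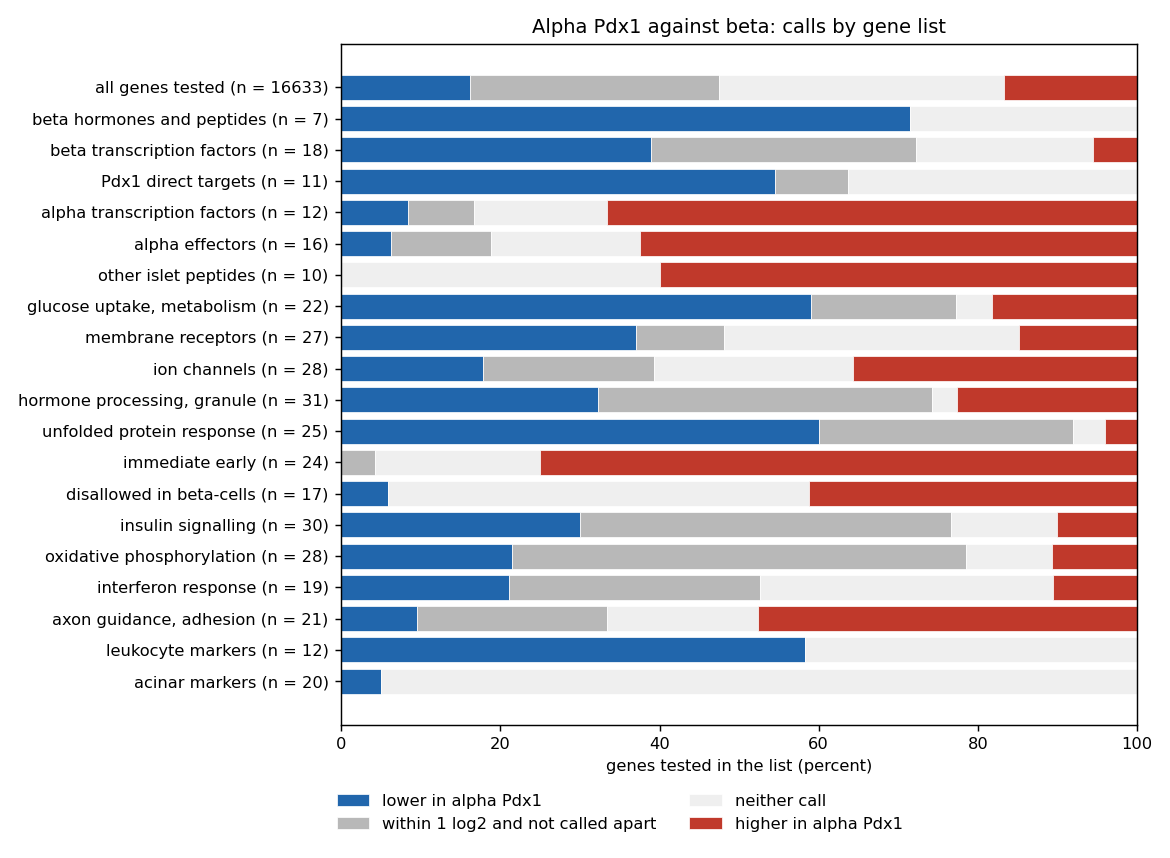
Share of the tested genes of each list (horizontal bars, percent) that were lower in Pdx1 alpha-cells (blue), within 1 log2 unit and not called (grey), without either call (light grey) or higher (red), with all 16633 tested genes in the top bar. Of the oxidative phosphorylation genes 18 of 28 were within 1, 2 of them also called, and 18 of 24 immediate early genes were higher.

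Genes of protein folding and the unfolded protein response, which secretory cells raise with their hormone load, were mostly below the beta-cell level. Of 25, 15 were lower, 1 was higher and 9 were within 1, 1 of these also called, with a median of -0.72. Over all genes 16.2% were lower and 33.8% within 1, so the within 1 share was near that over all genes. It was under that of genes with both group means above the table median, of which 4728 of 8027 were within 1. With the covariate 4 were lower, beside 910 of 16633 over all genes. Ero1lb, a thiol oxidase of proinsulin folding, was 14.61, 13.90, 14.01, 14.28 and 13.49 in Pdx1 alpha-cells and 15.57, 17.68, 17.68, 17.09, 16.14, 17.68 and 17.92 in beta-cells. No library overlapped, and Ero1lb was lower, beyond 1 (-3.05 ± 0.36, adjusted p = 1.25e-07). Wfs1, an endoplasmic reticulum protein gene mutated in Wolfram syndrome, was at -1.76 ± 0.33, and the folding factor gene Sdf2l1 at -1.76 ± 0.33 (adjusted p = 0.078 with the covariate). The stress sensor genes Ern1 (0.15 ± 0.19) and Eif2ak3 (-0.17 ± 0.19) were within 1. Atf3, which is also an immediate early gene, was the 1 gene that was higher (4.06 ± 0.61).

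Immediate early genes, which are induced within minutes by stimulation or by dissociating tissue, were higher in 18 of 24 cases and lower in none (background 16.7% higher), with a median of 2.16. Fos was 14.92, 15.62, 15.34, 15.40 and 15.49 in Pdx1 alpha-cells and 12.73, 10.001, 11.11, 11.28, 12.54, 11.03 and 10.90 in beta-cells. The groups did not overlap (3.98 ± 0.31, adjusted p = 3.16e-11), and the highest beta-cell values were again those of beta 1 and beta 5. Klf4 (4.29 ± 0.52) and Egr2 (3.47 ± 0.60) were higher too, and Jund was within 1 (0.12 ± 0.29; adjusted p = 0.0689 for within 1 with the covariate). The list mean was 9.62 to 10.10 in Pdx1 alpha-cells, 7.24 to 9.42 in beta-cells and 9.72 to 10.75 in alpha-cells. The count was 18 without Pdx1 alpha 5, beta 1 and beta 5 and 16 with the covariate (997 of 16633 over all genes).

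Of 17 genes that beta-cells keep low (disallowed genes), 7 were higher (16.7% over all genes), 1 lower and 9 had neither call, with a median of 1.49. With the covariate 3 were higher (997 of 16633 over all genes). Oat, ornithine aminotransferase, was 10.08 to 10.97 against 6.59 to 9.73 (2.84 ± 0.37), and Lmo4, a LIM-domain factor, was 7.76 to 9.03 against 5.04 to 6.44 (2.65 ± 0.32). Slc16a1, the lactate and pyruvate carrier, was higher by 2.91 ± 0.76 but overlapped, at 5.69 to 6.998 against 1.03 to 6.80 (adjusted p = 0.164 with the covariate). Of 21 axon guidance and adhesion genes 10 were higher, 2 lower and 5 within 1 (16.7%, 16.2% and 33.8% over all genes). Robo1, a Slit receptor, was lower (-2.23 ± 0.23) and Sema3e and Cntnap5b were higher (2.18 ± 0.35 and 2.92 ± 0.46). Of 7 Hedgehog pathway genes tested 2 were higher, 1 lower and 2 within 1 (16.7%, 16.2% and 33.8% over all genes). The coreceptor gene Cdon was lower (-0.71 ± 0.15, without overlap). The signal transducer gene Smo was higher (1.57 ± 0.34), and the factor gene Gli2 averaged 5.14 in Pdx1 alpha-cells with 5 of 7 beta-cell libraries at their lowest value. Among 10 genes of immature endocrine cells Neurog3, the factor of endocrine progenitors, averaged 3.24 against 5.97 (-2.73 ± 0.69, adjusted p = 0.0532 with the covariate), both below the table median, and Cd81 was higher (1.77 ± 0.25).

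Markers of other cells were compared in the same libraries. Acinar genes had a list mean of 9.35, 4.15, 4.79, 4.90 and 10.49 in Pdx1 alpha-cells and 13.99, 6.67, 10.04, 6.65, 13.86, 11.46 and 6.34 in beta-cells. The groups overlapped, with 1 of 20 genes called lower (Clps, -5.00 ± 1.92) and a median of -3.32. Clps was not called in the 12 libraries alone (adjusted p = 0.0624), with the covariate (adjusted p = 0.345) or without any 1 of Pdx1 alpha 2, 3 or 4 or beta 1, 3, 5 or 6 (adjusted p 0.0664 to 0.132). Leukocyte genes had a list mean of 3.76 to 4.88 against 5.66 to 10.41, highest in beta 1, and 7 of 12 were lower (16.2% over all genes). The complement gene C1qa was 4.76 to 6.25 against 7.72 to 8.96 (-2.80 ± 0.60). Without Pdx1 alpha 5, beta 1 and beta 5 2 of 11 leukocyte genes were lower, and none with the covariate (910 of 16633 over all genes). Of the 12 genes, 10 were below the table median in every Pdx1 alpha-cell library and 1 was below it in every beta-cell library. A gene above the median in beta 1 alone is left out of the beta-cell count. The list mean was 10.41 in beta 1 and 5.66 to 7.58 in the other beta-cell libraries, which is below the table median. In such bulk samples fewer cells of a type and less RNA per cell cannot be told apart, and the part of these cells in the differences above was not tested.

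Further marker lists gave smaller counts, beside 16.7% higher, 16.2% lower and 33.8% within 1 over all genes. Of 8 mesenchymal genes 2 were higher, Col1a2 at 10.07 to 11.63 against 4.96 to 7.96 (5.18 ± 0.41) and Col3a1 (2.54 ± 0.71, adjusted p = 0.221 with the covariate), and Col1a2 averaged 10.15 in alpha-cells too. Of 10 ductal genes 3 were lower, 1 higher and 4 within 1, with Krt7 at -1.35 ± 0.31. Of 8 delta-cell genes 2 were higher, 1 lower and 1 within 1, with Rbp4 at 3.13 ± 0.39 and Frmd7 at -3.04 ± 0.60 (adjusted p = 0.0587 with the covariate). In the 7 alpha-cell libraries other than alpha 8, Rbp4 averaged 13.91 and Frmd7 2.57. Of 6 pancreatic polypeptide cell genes 4 were higher, among them Ppy and Pyy. Interferon response genes were lower in 4, higher in 2 and within 1 in 6 of 19 cases, shares near those over all genes (16.2%, 16.7% and 33.8%). Oas2 was at -3.71 ± 0.76 and Oasl2 at -2.41 ± 0.51. Since Oas2 was at the lowest value in 3 of 5 Pdx1 alpha-cell libraries, its difference is not a fold. Of 2 endothelial genes tested 1 was lower, the adhesion gene Pecam1 (-2.88 ± 1.05). Pecam1 was at the lowest value in 3 of 5 Pdx1 alpha-cell libraries and 1 of 7 beta-cell libraries. It was not called without any 1 of Pdx1 alpha 3, 4 or 5 or beta 1, 5, 6 or 7 (adjusted p 0.0501 to 0.0944).

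**Figure D4:**
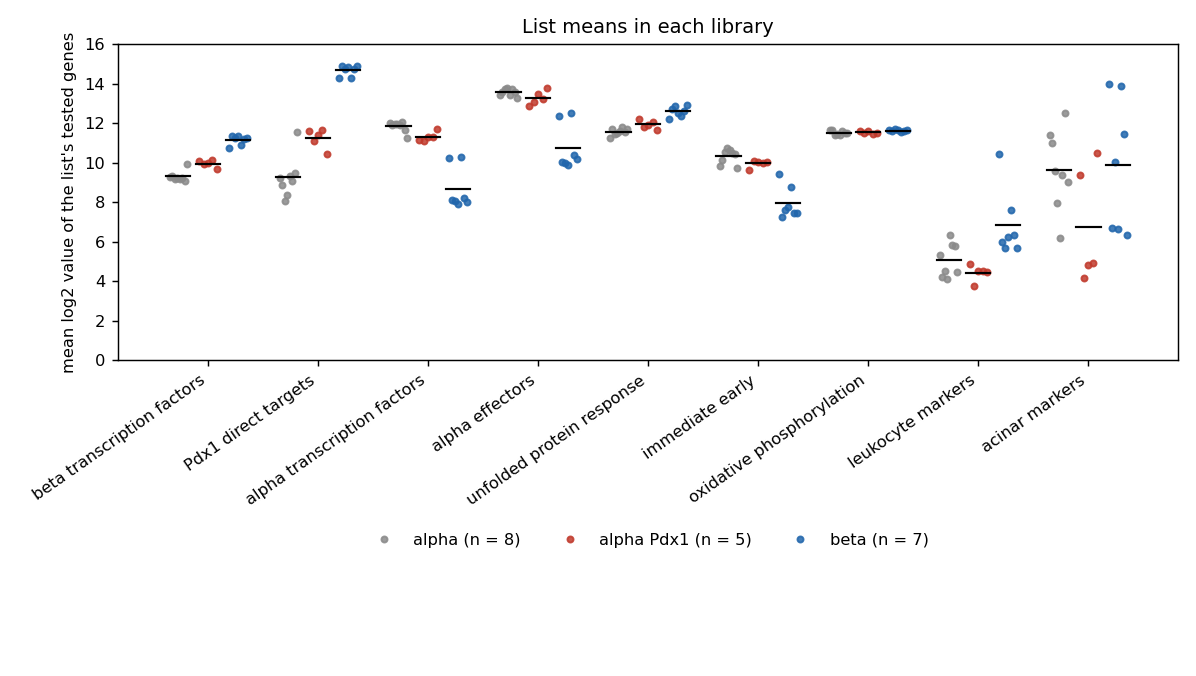
Mean log2 value over the tested genes of 9 lists (horizontal axis) in each alpha-cell (grey), Pdx1 alpha-cell (red) and beta-cell (blue) library, with black bars at group means. Oxidative phosphorylation lies at 11.47 to 11.61 in Pdx1 alpha-cells and 11.54 to 11.68 in beta-cells, whereas Pdx1 direct targets lie at 10.45 to 11.64 and 14.26 to 14.88.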

How the data were processed

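The authors deposited 1 table for bulk RNA-seq of sorted mouse islet cells, 17775 genes by 30 libraries, in log2 units after quantile normalization. The submitters' processing notes name GSNAP and the build GRCm38, and the counting rule was not given in the sources used here. In 28 columns with numbers as names the unit was entered as other for technical reasons; these too are the authors' deposited log2 values. No column was left out.

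Libraries were grouped by label, and no pair was a duplicate: the highest correlation was 0.986, between 2 beta-cell libraries. A gene was tested if 4 or more libraries had it at 5 or higher (1142 were removed). A mean per group was fitted to all 30 libraries with limma 3.58.1 (R 4.3.3), with trend and robust variances. Tests asked for any difference, a difference beyond 1 (treat) and a difference within 1 (the larger of 2 one-sided p-values), each adjusted by Benjamini-Hochberg over 16633 genes at 0.05. The first 2 were two-sided. On simulated data with independent noise, the changed genes were taken from above the median level only. Of these, 5 of 50 changed by 0.5 log2 units were called, 29 of 50 changed by 1 and 47 of 50 changed by 2. Of 16433 unchanged genes 5 were called. Within 1 was called for 3 of 50 genes changed by 1. Changes in genes of low level were not simulated.

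Named genes were 20 set genes, the 8 highest and 8 lowest called genes without overlap and above the median level, and per list up to 4 called per direction and 3 within 1 by smallest p, or 2 where none passed; other members are given as examples. Groups, lists (26 lists, 401 of 459 genes tested) and rule were chosen with earlier results of these data known. A few genes are not reported here. Gene positions are from GENCODE M21. Alternatives covered the libraries in the fit, filters, an offset, weights, centring, an Rn18s-rs5 covariate and each library left out. Tables and figures used Python 3.11.15, numpy 2.4.6, pandas 2.3.3 and matplotlib 3.10.9.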

Additional observations from a re-analysis of the deposited data

Results flagged for a closer look

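In 24 of 330 tests (165 named genes in each group), 1 library lay farther from the rest of its group than a 95% critical value allows, and chance gives about 1 in 20. The values of the other libraries of the group are in brackets. The library labelled Pdx1 alpha 1 had C1qbp at 8.14 (below 8.99 to 9.12), Cox4i1 at 12.19 (above 9.94 to 10.56), Kcnj3 at 8.39 (below 9.10 to 9.39) and Tyrobp at 4.86 (above 2.00 to 2.48). The library labelled beta 1 had Cd74 at 14.19 (above 7.85 to 10.18), Ddx58 at 10.52 (above 9.65 to 9.89), Gm17767 at 8.66 (below 10.24 to 10.89), Ifit3 at 8.48 (above 4.98 to 5.80), Ighg2c at 15.69 (above 4.76 to 9.32), Krt19 at 10.48 (above 3.64 to 6.12), Me1 at 9.91 (above 9.18 to 9.44), Oas3 at 7.68 (above 2.43 to 3.97) and Slit2 at 4.97 (above 3.27 to 3.79). The library labelled beta 3 had Dcx at 9.98 (below 10.25 to 10.44). The library labelled Pdx1 alpha 4 had Insr at 12.04 (above 11.69 to 11.75) and Sufu at 6.62 (above 6.23 to 6.30). The library labelled Pdx1 alpha 2 had Kcng3 at 4.17 (above 0.91 to 1.43). The library labelled beta 5 had Mc4r at 5.56 (above 2.16 to 3.50). The library labelled Pdx1 alpha 5 had Meis2 at 12.23 (above 11.82 to 11.88), Neurod1 at 12.84 (above 12.07 to 12.20), Pdha1 at 13.90 (above 12.11 to 12.51) and Slc7a2 at 15.86 (above 14.50 to 14.83). The library labelled Pdx1 alpha 3 had Oas2 at 4.57 (above 0.76 to 1.28). The library labelled beta 2 had Pam at 13.07 (below 13.51 to 13.84).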

How the results depend on the processing

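The count of called genes, 5464 in the reported fit, stayed within 1.5 times under the 12 libraries alone (7982), other filters, the offset, plain variances and centring. It moved to 9323 with library weights and 1907 with Rn18s-rs5 as a covariate. Beyond 1, 917 genes became 1831 with weights, 365 with the covariate and 1512 in the 12 libraries alone without Pdx1 alpha 5, beta 1 and beta 5, a setting chosen after seeing the data. Within 1, 5621 genes became 8993 with 32 added on the linear scale and 3703 with the covariate. Leaving out each of the 12 libraries in turn gave 4404 to 5662 called, 778 to 1001 beyond 1 and 4715 to 5309 within 1. Centring each library gave 46.6% of calls higher against 50.8%. The cause of these shifts was not tested. Of 170 named genes, 145 neither lost a call nor, for differences, changed sign without each library in turn. Genes that gained a call, such as Gcg, are among the 145. The other 25 include Iapp and Pdx1, which had no call to lose and changed sign. Differences that changed sign were not called in either fit for Iapp and Pdx1. Iapp was at 0.534 with the covariate and at -0.324 to 0.104 without single libraries, 0.003 without any 1 of beta 2, 3, 4 and 6. Pdx1 was at 0.444 with the covariate, at 0.027 without Pdx1 alpha 5, beta 1 and beta 5 (in both fits) and at -0.542 to 0.263 without single libraries, the last without Pdx1 alpha 5. Pdha1, called at 0.97, was at -0.052 with the covariate. No paired analysis was possible because replicate numbers follow accession order and pair no libraries. Quantile normalization and the missing read counts limit what can be said of depth: genes at a library's lowest value have no measurable fold.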
